A study of Mus musculus with 6 samples.

Results

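The genes described here encode the activating natural killer (NK) cell receptor NKp46 (Ncr1, ENSMUSG00000062524), 4 receptors of the NKR-P1 family (Klrb1a, ENSMUSG00000030361, Klrb1b, ENSMUSG00000079298, Klrb1c, ENSMUSG00000030325, and Klrb1f, ENSMUSG00000030154), the Fc receptor FcγRIII (Fcgr3, ENSMUSG00000059498), and the adaptors FcεRIγ (Fcer1g, ENSMUSG00000058715), DAP12 (Tyrobp, ENSMUSG00000030579) and DAP10 (Hcst, ENSMUSG00000064109). They were chosen as a named receptor and adaptor group, with earlier results of these data known. They make up 9 of the 29393 genes in the count table, and all 9 had enough counts to be tested. The cells were cDNT, double negative T cells made by converting CD4+CD25- T cells from spleen and lymph nodes of CD45.1 C57BL/6 mice in coculture with mature C57BL/6 dendritic cells (DCs) and recombinant IL-2, followed by fluorescence-activated sorting. The libraries are labelled as double negative T cells of adult C57BL/6 spleen. The W/ IL-10 group (n = 3 libraries) had received IL-10 at 50 ng/ml for 24 h, and the W/O IL-10 group (n = 3) had not. The study's methods add that cDNT were given anti-CD3/CD28 antibodies with IL-10, which the labels of these libraries do not mention. The comparison asks how IL-10, a cytokine that alternatively activated macrophages secrete, changed the transcripts of cDNT that serve killing and its control.

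NKp46 and the activating NKR-P1 receptors have short cytoplasmic tails and recruit adaptor proteins to signal. FcεRIγ and DAP12 carry an immunoreceptor tyrosine-based activation motif (ITAM), which, once phosphorylated by Src family kinases, binds the tandem SH2 kinases Syk and ZAP70. DAP10 carries a YINM motif that binds phosphatidylinositol 3-kinase and Grb2, and it is the partner of NKG2D. NKp46 and FcγRIII pair with FcεRIγ, as do the activating NKR-P1 receptors, whereas NKR-P1B (Klrb1b) carries an inhibitory motif (ITIM) that binds the phosphatase SHP-1. NKR-P1C (Klrb1c) is the NK1.1 antigen of C57BL/6 mice, an NK cell marker, and double negative T cells are usually defined as lacking it. The antigens used to sort the sequenced cells are not given in the sources used here.

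The motifs that tie these receptors to their signals are shown as coding bases, since they are what separates adaptor from receptor and activating from inhibitory members. They were read from the GENCODE M21 transcripts (GRCm38), 5′ to 3′ on the coding strand, with 2 flanking codons on each side, and capitals mark the codons of the residues that define the motif. The ITAM stretches were found at codons 65 to 79 of 86 in Fcer1g (chr1:171229883-171230078, minus strand) and at codons 92 to 106 of 114 in Tyrobp (chr7:30415664-30417388, plus strand), and both spans include an intron.
Fcer1g ITAM: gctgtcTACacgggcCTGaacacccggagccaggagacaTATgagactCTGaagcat
Tyrobp ITAM: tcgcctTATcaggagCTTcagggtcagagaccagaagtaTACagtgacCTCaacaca
The YINM stretch of Hcst lay at codons 72 to 75 of 79 (chr7:30417815-30417838, minus strand), near the end of the protein.
Hcst YINM: agagtcTACatcaacATGcctggc
Among the 4 NKR-P1 genes, the ITIM letters were found in the tail of Klrb1b alone, at codons 6 to 11 of 223 (chr6:128826208-128826237, minus strand).
Klrb1b ITIM: acaacaCTGgtcTATgcagatTTAaaccta
All 4 NKR-P1 genes held the codons of the CxCP motif, which is known to bind the kinase Lck, at codons 37 to 40 in Klrb1a (chr6:128620328-128622731, minus strand), 32 to 35 in Klrb1b (chr6:128821018-128826159, minus strand), 79 to 82 in Klrb1c (chr6:128786001-128788397, minus strand) and 31 to 34 in Klrb1f (chr6:129046032-129052481, plus strand), with an intron inside each span.
Klrb1a CxCP: gatgccTGTcggTGCCCAcgttca
Klrb1b CxCP: gacaccTGTcggTGCCCTcgctgg
Klrb1c CxCP: gatgccTGTcggTGCCCAcgttca
Klrb1f CxCP: gatgctTGTcggTGCCCAcactgg
The printed CxCP stretch was the same in Klrb1a and Klrb1c. The coding sequences of Ncr1 and Fcgr3 held neither an ITAM, a YINM-type motif nor CxCP.

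The libraries held 21619420 to 23967088 counts. Library sizes were scaled by TMM factors of 0.953 to 1.03, and levels are given as CPM, counts scaled to a common library size. A count of 3 corresponded to 0.122 to 0.146 CPM. A gene was called changed when the adjusted p of edgeR's quasi-likelihood test (Benjamini-Hochberg over all 14916 genes tested) was under 0.05 and the fold change was at least 1.5. W/O IL-10 replicate 1 stood apart from the other controls, with 39.1% of tested genes highest there within the group. W/ IL-10 replicate 1 likewise stood apart from the other IL-10 libraries, with 39.4% of tested genes highest there, and a chi-square per degree of freedom of 33.4 and 32.1 against them where they differed from each other by 9.08. The labels do not say whether the libraries came from separate cultures or mice, so p-values measure the spread between these libraries, which may be technical. In a bulk sample, fewer cells of a type and less RNA per cell cannot be told apart.

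Of the 9 genes, Ncr1 alone was called changed, and it fell with IL-10. Among all genes tested, 1.45% were called, 0.677% lower and 0.778% higher. An adjusted p under 0.05 at any fold was reached by 2.19% of all genes and, among the 9, again by Ncr1 alone. The log2 fold change (W/ over W/O IL-10) was below 0 for 8 of the 9 genes, against 48.8% of all genes, and the median over the 9 was -0.40 against 0.0063 over all genes tested. Because the genes were chosen with earlier results of these data known, the shares in this paragraph describe the group and do not test it. In 5 genes the libraries of the groups did not overlap, 4 of them lower W/ IL-10 (Ncr1, Klrb1a, Klrb1b and Fcgr3) and 1 higher (Klrb1f). Over all genes this held for 22.6%, with 11.2% lower and 11.3% higher. An unadjusted p under 0.05 was reached by 4 of the 9 genes, all lower, against 14.7% of all genes and 7.17% in that direction.

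**Figure D1:**
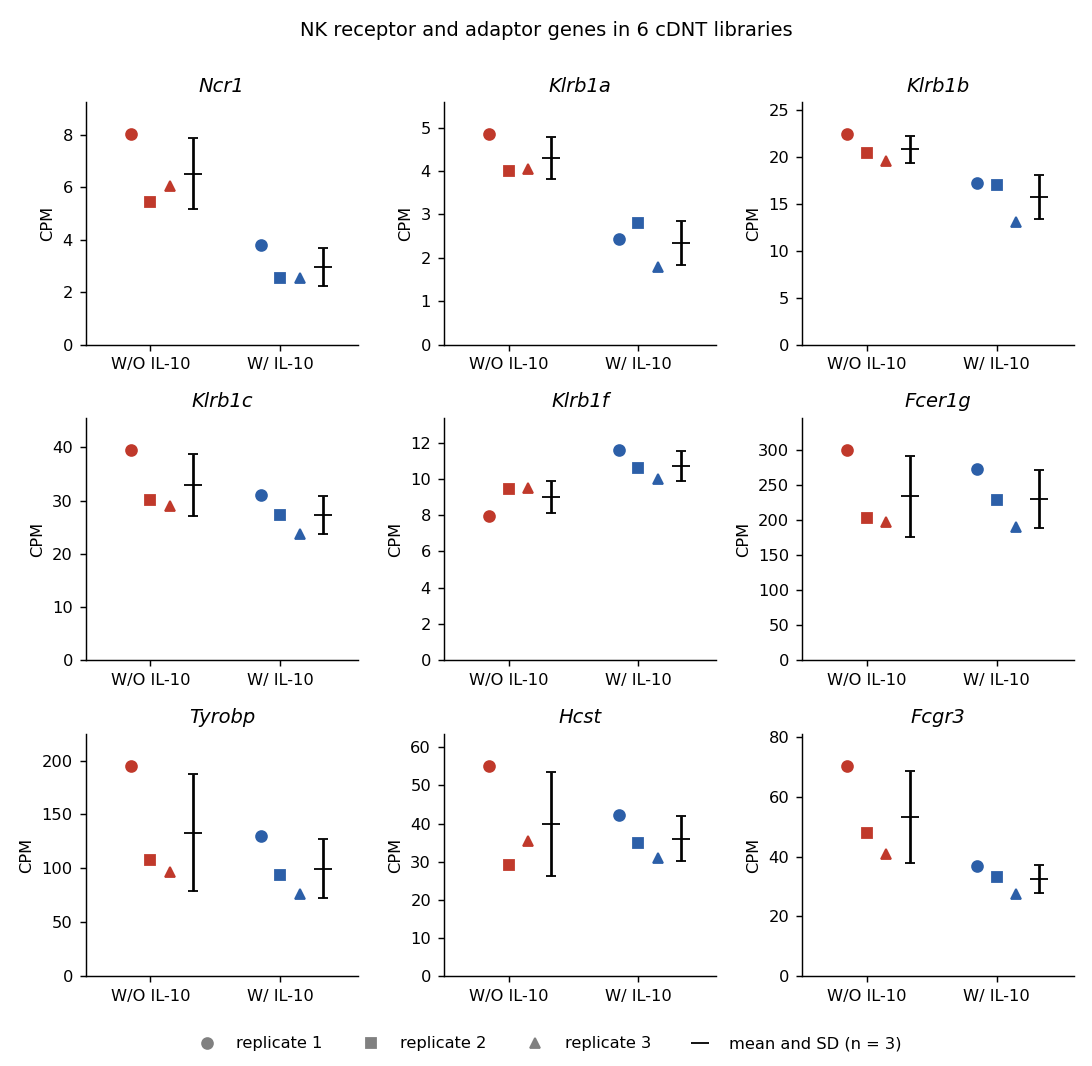
TMM-scaled CPM of each of the 9 genes (vertical axis, each panel from 0 on its own scale) in the 3 control and 3 IL-10 libraries, with red and blue points for libraries, shaped by replicate, and black bars for the mean and SD (n = 3). Ncr1, Klrb1a, Klrb1b and Fcgr3 had every W/ IL-10 library under every W/O IL-10 library, Klrb1f the reverse, and the other genes overlapped.

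Ncr1, the gene of the receptor NKp46, was expressed at a low level and fell further with IL-10. Its level was 8.04, 5.45 and 6.07 CPM in control replicates 1, 2 and 3, against 3.79, 2.53 and 2.54 CPM in the libraries with IL-10, from 197, 132 and 141 counts against 78, 57 and 58 counts. The highest W/ IL-10 library thus lay under the lowest control. The mean went from 6.52 ± 1.35 to 2.95 ± 0.723 CPM (SD, n = 3 per group), 2.21-fold lower, with a log2 fold change of -1.15 (SE 0.234, 95% interval -1.68 to -0.62) and an edgeR adjusted p of 0.0460. The adjusted p lay close to the threshold and the call depended on which libraries were kept. Without W/O IL-10 replicate 1, the control with the highest Ncr1 level, the log2 fold change was -0.98 with an adjusted p of 0.0352 by the same test. Without W/O IL-10 replicate 2 or 3 the adjusted p was 0.0907 and 0.0795, and without W/ IL-10 replicate 1, 2 or 3 it was 0.0800, 0.154 and 0.220, all with the log2 fold change between -1.36 and -1.05. With a fold of 1.5 as the null hypothesis (edgeR's glmTreat) the adjusted p was 0.757, so a fall of more than 1.5-fold was not shown.

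None of the 4 NKR-P1 genes was called, and differences between them were not tested. Klrb1a, which encodes the activating receptor NKR-P1A, stood at 4.86, 4.01 and 4.04 CPM in the controls and 2.43, 2.79 and 1.79 CPM W/ IL-10. The groups did not overlap, and the mean of 4.30 ± 0.480 CPM compared with 2.34 ± 0.506 CPM (SD, n = 3 each), a ratio of 1.84. The log2 difference was -0.88 (SE 0.224, 95% interval -1.39 to -0.37) with an adjusted p of 0.0962 (edgeR), so Klrb1a was not called. It was called by DESeq2 (adjusted p 0.0294) and by edgeR with a correction for GC content and length (0.0415).

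Klrb1b, the inhibitory NKR-P1B, had the same order of groups at a higher level. It was at 22.4, 20.3 and 19.6 CPM in the controls and 17.2, 17.0 and 13.0 CPM W/ IL-10. All IL-10 libraries lay under all controls, the means being 20.8 ± 1.47 and 15.7 ± 2.34 CPM. The log2 difference of -0.40 (SE 0.13, 95% interval -0.70 to -0.11) did not pass the test (edgeR adjusted p 0.186).

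Klrb1c, the NK1.1 gene, had the highest CPM of the NKR-P1 genes in every library, without regard to exon length. Per kilobase of exon, its control libraries (9.778 to 13.35 CPM per kb) overlapped those of Klrb1b (8.785 to 10.06). With IL-10 these ranges were apart (8.041 to 10.47 against 5.854 to 7.71 CPM per kb). Klrb1c stood at 39.5, 30.0 and 29.0 CPM without IL-10 and 31.0, 27.2 and 23.8 CPM with it. The groups overlapped through W/ IL-10 replicate 1. The log2 difference was -0.27 (95% interval -0.59 to 0.06, edgeR adjusted p 0.444). NK1.1 mRNA was therefore detected in every library of cells that are usually defined as lacking the protein, and the files hold no measure of the protein.

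Klrb1f, encoding the activating NKR-P1F, was the 1 gene with a positive log2 difference. Its levels were 7.96, 9.46 and 9.51 CPM without IL-10 and 11.6, 10.6 and 9.98 CPM with it. The libraries did not overlap, although the gap between 9.51 and 9.98 CPM was small. The log2 difference of 0.26 (95% interval -0.04 to 0.56) did not pass the test (edgeR adjusted p 0.418), and it was 0.081 with the GC and length correction.

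**Figure D2:**
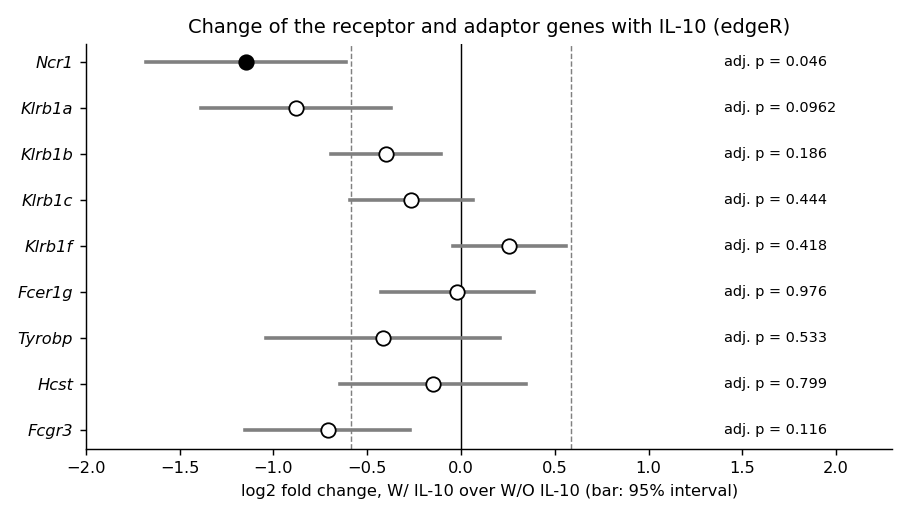
Log2 fold change of W/ over W/O IL-10 for each of the 9 genes (horizontal axis), as the edgeR estimate (filled where called) with its 95% interval and adjusted p, and dashed lines at a fold of 1.5 in each direction. The intervals of Ncr1, Klrb1a, Klrb1b and Fcgr3 lie below 0, from -1.68 to -0.62 for Ncr1, and those of the other genes include 0.

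The adaptor FcεRIγ, which pairs with NKp46 and FcγRIII, showed no such separation of groups. Fcer1g was at 300.4, 203.7 and 197.3 CPM in the controls and at 272.9, 229.0 and 189.9 CPM W/ IL-10. The ranges overlapped almost fully and the means were 234 ± 57.8 and 231 ± 41.5 CPM. The log2 difference was -0.02 (SE 0.18, edgeR adjusted p 0.976). Its 95% interval ran from -0.43 to 0.39 and so spanned changes of less than 1.5-fold in either direction.

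Tyrobp, the gene of DAP12, was at 195.3, 107.5 and 96.4 CPM in the controls and at 129.8, 93.7 and 75.9 CPM with IL-10. Most of the difference between the means (133 ± 54.2 and 99.8 ± 27.5 CPM) lay in W/O IL-10 replicate 1, and the groups overlapped. The log2 difference of -0.42 (95% interval -1.04 to 0.21) did not pass the test (edgeR adjusted p 0.533), and it was -0.04 without that library.

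Hcst, the gene of DAP10, was at 55.2, 29.2 and 35.4 CPM in the controls and 42.4, 34.8 and 30.9 CPM with IL-10. Here too W/O IL-10 replicate 1 held the highest value and the groups overlapped. The log2 difference was -0.15 (95% interval -0.65 to 0.35, edgeR adjusted p 0.799). Without W/O IL-10 replicate 1 it turned to 0.14.

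Fcgr3, the low-affinity IgG receptor FcγRIII that arms NK cells for antibody-dependent killing, stood at 70.5, 48.0 and 41.0 CPM in the controls and 36.8, 33.1 and 27.5 CPM W/ IL-10. All IL-10 libraries lay under all controls. The mean of 53.2 ± 15.4 CPM compared with 32.5 ± 4.71 CPM, a ratio of 1.64. The log2 difference of -0.71 (SE 0.194, 95% interval -1.15 to -0.27) did not pass the test (edgeR adjusted p 0.116). It passed with DESeq2 (adjusted p 0.00596) and with edgeR after the GC and length correction (0.0309). Without W/O IL-10 replicate 1 the log2 difference was -0.47 and without the other libraries it reached -0.88, with adjusted p from 0.0534 to 0.383 over the 6 fits.

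**Figure D3:**
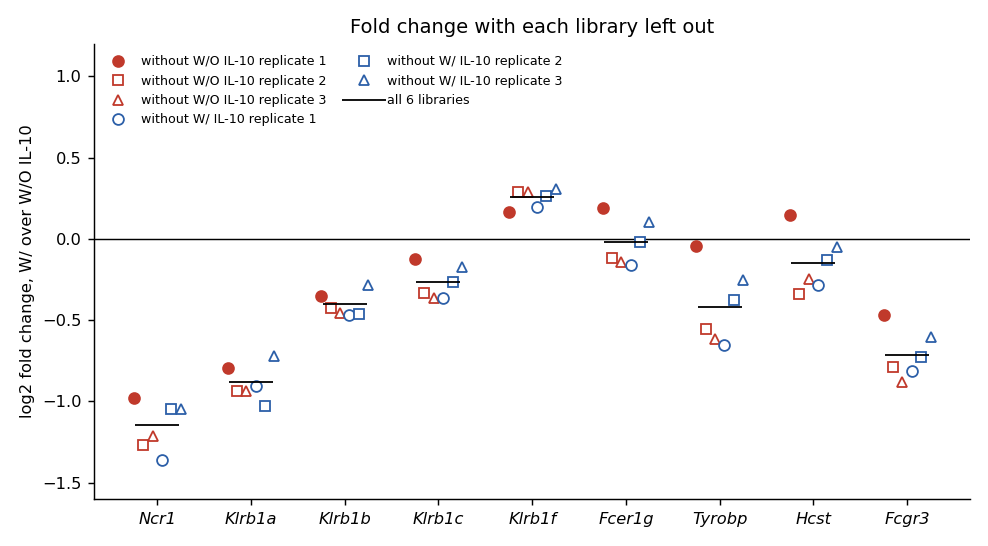
Log2 fold change (vertical axis) of each of the 9 genes when each of the 6 libraries was left out in turn, with the fit of all 6 libraries as a short line and the fit without W/O IL-10 replicate 1 as a filled point. Ncr1 stays between -1.36 and -0.98, whereas Tyrobp moves to -0.04 and Hcst to 0.14 without W/O IL-10 replicate 1.

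One control set the top of most of these ranges. W/O IL-10 replicate 1 was the highest control for 8 of the 9 genes, all but Klrb1f, against 39.1% of all genes tested. These 8 genes were also highest there among all 6 libraries, for which the share over all genes was not counted. Within the IL-10 group, replicate 1 was the highest for 8 of the 9 genes, all but Klrb1a, against 39.4% of all genes tested. The level in W/O IL-10 replicate 1 over the mean of the other controls was 1.92 for Tyrobp, 1.71 for Hcst, 1.58 for Fcgr3, 1.5 for Fcer1g, 1.40 for Ncr1 and 0.839 for Klrb1f. The median of this ratio over all genes tested was 1.00, with 10th and 90th percentiles of 0.688 and 1.39. The adaptor genes are short and GC-rich, with exons of 667 bases (Tyrobp), 722 bases (Hcst) and 874 bases (Fcer1g) and GC contents of 54.8%, 57.2% and 51.8%. Over the 683 tested genes with exons under 1000 bases and GC above 50%, the median ratio in that library was 1.28, with 10th and 90th percentiles of 0.766 and 2.22. Ncr1 (1540 bases, 44.2% GC) lay outside that class. The part of GC content and length in the adaptor levels was not tested beyond the correction given above.

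Counts per length set the adaptors Fcer1g and Tyrobp far above the receptors, whereas Hcst overlapped Fcgr3 in the controls. In the controls the mean level per kilobase of exon was 268 CPM per kb for Fcer1g, 199.5 for Tyrobp, 55.3 for Hcst, 30.6 for Fcgr3, 11.1 for Klrb1c, 9.32 for Klrb1b, 4.43 for Klrb1f, 4.23 for Ncr1 and 2.70 for Klrb1a. The library ranges of Fcer1g and Tyrobp overlapped, as did those of Hcst and Fcgr3, of Klrb1c and Klrb1b, and of Klrb1f and Ncr1, so the order within these pairs was not beyond the spread. With IL-10 the order was the same, with means of 264, 149.6, 49.9, 18.7, 9.24, 7.06, 5.30, 1.92 and 1.47 CPM per kb. Ncr1 and Klrb1a then overlapped, whereas every other neighbouring pair was separated, Klrb1f from Ncr1 included.

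**Figure D4:**
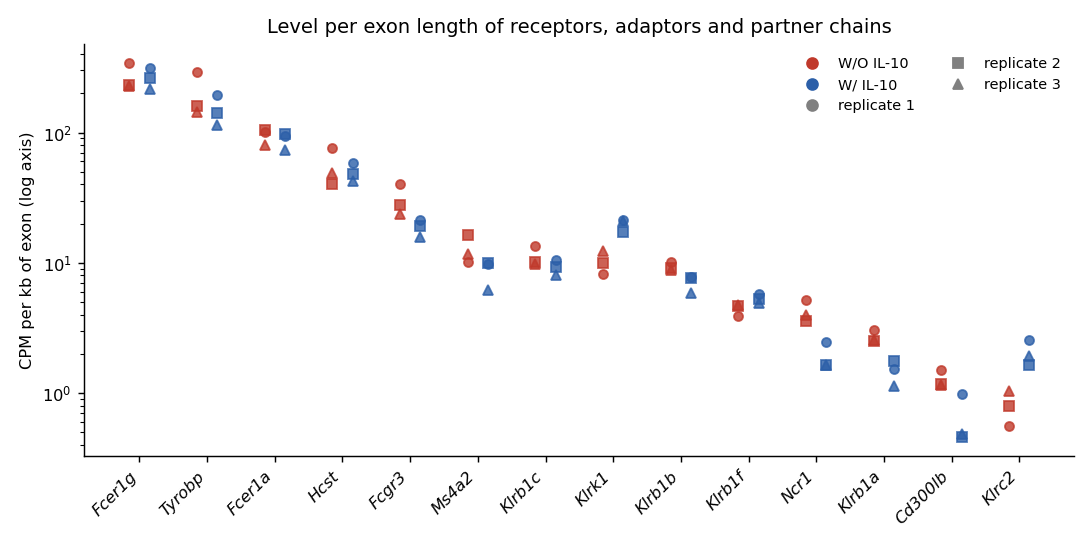
TMM-scaled CPM per kilobase of exon (log axis) of the 9 genes and of the partner chains Fcer1a, Ms4a2, Klrk1, Cd300lb and Klrc2, with red points for W/O and blue points for W/ IL-10 libraries, in the order of the control means. Fcer1g lies highest with control libraries between 226 and 344, and Klrb1a is the lowest of the 9, with control libraries between 2.51 and 3.05.

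The genes lie in 4 places of the GRCm38 genome. Ncr1 is at chr7:4337724-4345164 (plus strand), beside the collagen receptor gene Gp6, which had 11 counts in W/O IL-10 replicate 1, 2 in replicate 2 and 0 in the other libraries. Tyrobp (chr7:30413760-30417585, plus strand) and Hcst (chr7:30417712-30419854, minus strand) lie tail to tail, 127 bases apart. Fcer1g (chr1:171229572-171234365) and Fcgr3 (chr1:171051174-171064935) are both on the minus strand of chromosome 1. The NKR-P1 genes are in the NK gene complex on chromosome 6, with Klrb1a at chr6:128609227-128623533, Klrb1c at chr6:128778485-128789215 and Klrb1b at chr6:128813706-128826331, all on the minus strand, and Klrb1f at chr6:129045901-129057464 on the plus strand. Of the 14 other tested genes within 50 kb of a member, 0 were called by edgeR and 0 had an adjusted p under 0.05.

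Shared sequence limits how surely some counts can be assigned. Of all 50-base stretches in the transcripts of Klrb1b, 27.2% also occurred in another gene, mostly Gm44511, a same-strand gene that overlaps 26.9% of its exon bases. The share was 17.0% for Klrb1c, 9.92% for Klrb1a and 9.58% for Fcgr3, the last with the inhibitory Fc receptor gene Fcgr2b. These shares are not a measure of error, and how far such stretches moved the counts or the levels per length of these 4 genes was not tested. Ncr1, Klrb1f, Fcer1g, Tyrobp and Hcst had 0% such stretches.

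The promoter of Ncr1 is shown because Ncr1 is the gene that was called. It covers the 250 bases before the RefSeq start (GRCm38.p6, chr7:4337465-4337714, plus strand), and capitals mark the letters TGTGGT, the core of RUNX sites, on either strand.
Ncr1 promoter: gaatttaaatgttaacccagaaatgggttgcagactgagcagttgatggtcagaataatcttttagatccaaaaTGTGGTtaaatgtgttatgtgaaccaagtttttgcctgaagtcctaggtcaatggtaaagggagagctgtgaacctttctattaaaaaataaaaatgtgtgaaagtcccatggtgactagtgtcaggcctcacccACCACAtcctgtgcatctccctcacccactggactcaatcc
These letters start 176 and 41 bases before the start. Of the 8 members with a promoter entry (Tyrobp has none), Klrb1a and Klrb1c held 1 match each, at 126 and 89 bases, against 14.2% of 27025 mouse promoters with at least 1 match. Neither the T-box letters AGGTGTGA (1.14% of promoters) nor the STAT letters TTCNNNGAA (7.18%) were found in any of the 8, on either strand. The promoters of Klrb1a and Klrb1c were 75.2% identical and those of Klrb1b and Klrb1f 66.8%, whereas the other pairs among the 4 were 55.2 to 58.4% identical. A match in these letters is a description and not a binding site.

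Receptors that share the same adaptors included genes that rose. Of 15 partner receptor genes, 7 were tested, 2 were called higher and 0 were called lower, against 0.778% and 0.677% of all genes. The median log2 fold change was 0.25 (0.0063 over all genes). Klrk1, which encodes the DAP10 partner NKG2D, was at 58.7, 71.5 and 88.7 CPM in the controls and at 151.7, 124.0 and 150.2 CPM with IL-10. The groups were well apart, with a log2 fold change of 0.96 (SE 0.146, edgeR adjusted p 0.0165). Klrc2, which encodes the DAP12 partner NKG2C, was at 3.22, 4.59 and 6.07 CPM in the controls and 14.8, 9.54 and 11.1 CPM with IL-10, a log2 fold change of 1.35 (SE 0.247, edgeR adjusted p 0.0322). When the fit was changed, calls were counted over this list and the signaling and NKR-P1 ligand lists below together. Without W/O IL-10 replicate 2, W/ IL-10 replicate 1 or W/ IL-10 replicate 3, 0 of these genes were called. The count was also 0 with a fold of 1.5 as the null hypothesis, so both calls were lost in these fits. Without W/ IL-10 replicate 2, with the replicate block or with each GC and length correction, 1 was called, so at least 1 call was lost. Fcer1a, the FcεRIγ partner that binds IgE on mast cells and basophils, was at 79.5 to 103.9 CPM in the controls and 73.9 to 97.0 CPM with IL-10 (log2 difference -0.10, edgeR adjusted p 0.775). Clec4e, the FcεRIγ-coupled receptor Mincle, was at 28.0 to 40.0 and 30.7 to 42.4 CPM (adjusted p 0.610). The DAP12-coupled Ly49 genes Klra4 and Klra8 were at 1.14 to 7.04 CPM and passed no test (edgeR adjusted p 0.783 and 0.748). Cd300lb, a DAP12-coupled receptor of myeloid cells, was at 4.37, 3.43 and 3.36 CPM in the controls and 2.86, 1.33 and 1.40 CPM with IL-10, without overlap (log2 difference -1.0, edgeR adjusted p 0.177). The other 8 genes had too few counts to be tested, among them Fcgr1, Fcgr4, Trem1 and Trem2, which are markers of myeloid cells.

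None of the signaling genes that read these motifs passed the test. Of 25 kinase, adaptor, lipase, exchange factor and phosphatase genes, 25 were tested and 0 were called by edgeR, with a median log2 fold change of 0.01. With 3 genes lower and 7 higher, the libraries did not overlap, against 11.2% and 11.3% of all genes. The genes with the highest counts were Pik3cd, a catalytic subunit of phosphatidylinositol 3-kinase, at 546 to 562 CPM in the controls and 571 to 649 CPM with IL-10, the ubiquitin ligase gene Cbl at 473 to 493 and 337 to 482 CPM, the Src family kinase gene Fyn at 325 to 368 and 362 to 421 CPM, and the SLP-76 gene Lcp2 at 339 to 351 and 359 to 379 CPM. Their edgeR adjusted p-values were 0.500, 0.472, 0.449 and 0.571. Syk and Zap70, picked here after their values were seen because they bind ITAMs, were at 22.7 to 34.8 CPM and at 311 to 359 CPM over all libraries, with adjusted p of 0.334 and 0.592.

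The ligands of the NKR-P1 receptors are C-type lectin related proteins, and transcripts of some were present in the libraries. Of 6 ligand genes, 4 had too few counts to be tested, 2 were tested and 0 were called by edgeR. Clec2d, whose product Clr-b is the ligand of NKR-P1B, was at 39.4, 35.7 and 40.2 CPM in the controls and 58.3, 35.0 and 37.8 CPM with IL-10 (adjusted p 0.677). Clec2i, whose product Clr-g binds NKR-P1F, was at 78.7, 97.8 and 108.4 CPM in the controls and 138.9, 123.1 and 132.3 CPM with IL-10. All IL-10 libraries of Clec2i lay above all controls, yet the log2 difference of 0.47 (SE 0.115) did not pass the test (edgeR adjusted p 0.0849).

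Lists of marker genes place these values beside the makeup of the libraries. The T cell list (10 of 10 tested, 0 called) summed to 3278 to 3639 CPM in the controls and 4122 to 4205 CPM with IL-10. Its 1 gene with an adjusted p under 0.05 was Cd5, an inhibitor of T cell receptor signaling, which fell at less than 1.5-fold from 56.9 to 70.8 CPM to 43.2 to 47.1 CPM (log2 fold change -0.47, edgeR adjusted p 0.0467). The cells are labelled double negative, and Cd4 was at 0.35 to 1.55 CPM, but Cd8a was at 95.7 to 118.9 CPM in the controls and 138.5 to 168.4 CPM with IL-10 (log2 fold change 0.56, edgeR adjusted p 0.0369), and Cd8b1 was called higher (0.67, adjusted p 0.0306). Of 8 NK cell markers other than the 9 genes, Klra7 and Styk1 were called higher with IL-10 (log2 fold change 0.77 and 0.99, edgeR adjusted p 0.0447 and 0.00815), while Eomes, a transcription factor of NK cells and memory T cells, fell from 498 to 538 CPM to 352 to 383 CPM (-0.51, adjusted p 0.0176). Of the 8, 7 had a log2 fold change above 0 and 1 (Eomes) below, against 48.8% of all genes below 0, and the median was 0.47. The groups did not overlap for 5 genes on the higher side and 1 (Eomes) on the lower, against 11.3% and 11.2% of all genes. Ncr1 lay on the lower side, as Eomes did. The part of NK cells in the Ncr1 level was not tested. The sum of that list, 621 to 728 CPM and 630 to 655 CPM, is mostly Eomes and overlapped between the groups. The innate-like T cell list (6 of 6 tested) summed to 340 to 372 and 374 to 405 CPM, with Sox13 called lower (-1.02, adjusted p 0.0213) and Trdc higher at less than 1.5-fold (0.43, adjusted p 0.0282).

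Cells other than T and NK cells also use these adaptors, and their markers were present to unequal degrees. Of the mast cell and basophil list, 6 of 6 genes were tested and 6 had a log2 fold change below 0, against 48.8% of all genes. The median was -0.49, against -0.49 for the B cell list and -0.54 for the dendritic cell list. In it 1 gene was called, lower with IL-10 (Tpsb2, -0.73, edgeR adjusted p 0.0191), against 0.677% of all genes. The groups did not overlap for 4 of the 6 genes on the lower side and 0 on the higher, against 11.2% and 11.3% of all genes. The sum of the list went from 1173 to 1461 CPM in the controls to 872.5 to 1091 CPM with IL-10, without overlap. The protease gene Cpa3 was at 577 to 808 and 420 to 597 CPM, and Kit, the stem cell factor receptor, fell from 416 to 431 CPM to 302 to 326 CPM (-0.42, adjusted p 0.0269). None of the 6 genes was at 0. In the controls the sum was highest in replicate 2 (1461 CPM, against 1405 and 1173 CPM in replicates 1 and 3), as were Cpa3 and Ms4a2, whereas Mcpt8, Gata2, Kit and Tpsb2 were highest in replicate 1, where Fcgr3, Fcer1g and Ncr1 were highest too. Mcpt8, a basophil protease gene, was at 157.8, 77.7 and 65.5 CPM in the controls. The part of such cells in the levels of Fcgr3, Fcer1g and Tyrobp was not tested. The B cell list, with 6 of 6 genes lower and 0 called, summed to 63.3 to 157.1 and 61.2 to 108.5 CPM.

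The myeloid lists were low where their defining genes were concerned. The macrophage and monocyte list (6 of 11 tested, 0 called by edgeR) summed to 37.3 to 41.7 CPM in the controls and 39.8 to 41.2 CPM with IL-10, mostly from Cd68, while Csf1r stayed at or under 0.327 CPM and C1qa was at 0 in all 3 W/ IL-10 libraries. The neutrophil list (3 of 6 tested, 0 called) summed to 3.14 to 8.77 and 4.38 to 7.13 CPM, highest in W/O IL-10 replicate 1. The dendritic cell list, the coculture partner, had 9 of 12 genes tested and summed to 221.5 to 354.3 and 180.6 to 275.5 CPM, with the MHC class II chaperone gene Cd74 at 88.7 to 160.4 and 60.5 to 118.6 CPM. Of its 9 tested genes, 7 had a log2 fold change below 0, with a median of -0.54. The chemokine gene Ccl22 was at 20.97, 9.50 and 5.89 CPM in the controls and 3.79, 1.77 and 0.263 CPM with IL-10 (edgeR adjusted p 0.102), and Fscn1, an actin-bundling protein gene of mature DCs, was at 7.55, 3.06 and 2.75 CPM and 1.21, 1.95 and 0.919 CPM (adjusted p 0.105). Both were picked after their values were seen, did not overlap between the groups and were highest in W/O IL-10 replicate 1, as Ncr1 and Fcgr3 were. The sum of the list went the other way, with 221.5, 354.3 and 259.3 CPM in control replicates 1, 2 and 3. Cd74, H2-Aa and H2-Ab1 were likewise lowest in replicate 1 among the controls. Of the 9 tested genes, 3 did not overlap on the lower side and 2 on the higher, against 11.2% and 11.3% of all genes. The lower ones were Ccl22, Fscn1 and Zbtb46 (log2 difference -0.44, edgeR adjusted p 0.212). Zbtb46 was at 6.94, 6.98 and 6.15 CPM in control replicates 1, 2 and 3. The higher ones were Itgax, given below, and Xcr1 (log2 difference 0.60, edgeR adjusted p 0.184). The part of DCs in the levels of the 9 genes was not tested. In the same list Itgax, an integrin gene that activated T and NK cells also express, was called higher with IL-10 (1.09, edgeR adjusted p 0.00383). The DC genes Flt3 and Clec9a were at or near 0. Fcer1g, at 190 to 300.4 CPM, and Tyrobp, at 75.9 to 195.3 CPM, were above the whole macrophage and neutrophil sums in every library. They were under the mast cell and basophil sum, at 872.5 to 1461 CPM, and the dendritic cell sum was 180.6 to 354.3 CPM. Sums of other genes do not show which cells held the adaptor transcripts, which was not tested.

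**Figure D5:**
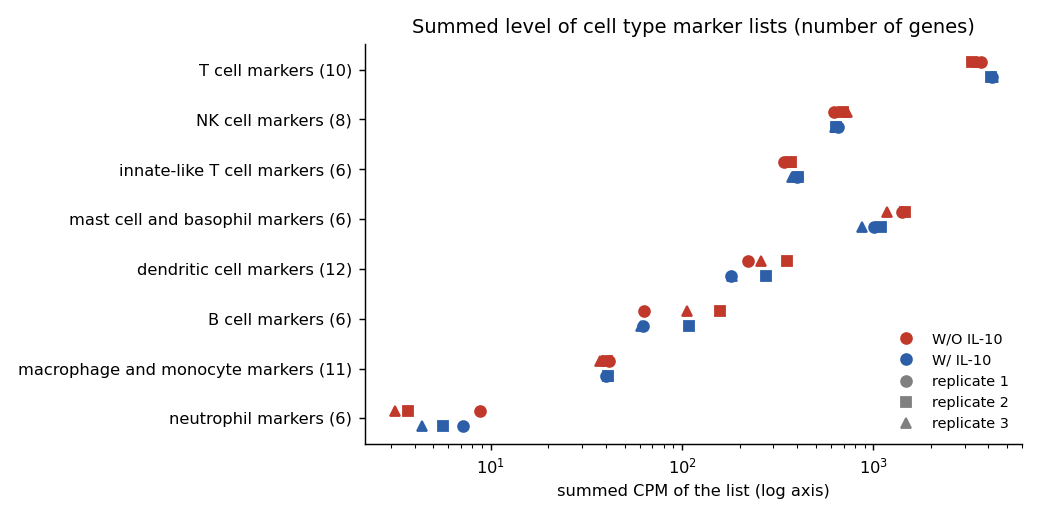
Summed TMM-scaled CPM of each marker list (log axis, number of genes in brackets) with red points for the 3 W/O and blue points for the 3 W/ IL-10 libraries, shaped by replicate. The mast cell and basophil sums (872.5 to 1461 CPM) do not overlap between the groups, and the macrophage and neutrophil sums reach at most 41.7 CPM.

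The genes whose profile over the 6 libraries lay nearest to that of Ncr1 were found by the Euclidean distance between log2 CPM values centred on each gene's own mean. They were Tns4 (distance 0.246), which encodes the focal adhesion protein tensin 4, Enpp2 (0.325), which encodes autotaxin, Coro2b (0.399), which encodes an actin-binding coronin, Cd300lb (0.425), described above, and ENSMUSG00000084956 (0.436), for which no symbol was found. Coro2b was the 1 of these 5 called (log2 fold change -1.0, edgeR adjusted p 0.0125), at 24.8, 20.2 and 18.8 CPM in the controls and 11.8, 10.6 and 9.37 CPM with IL-10. Ranked over 14915 genes by the same distance, Klrb1a was at 63, Fcgr3 at 67, Klrb1b at 448, Tyrobp at 530, Klrb1c at 729, Hcst at 1851, Fcer1g at 3484 and Klrb1f at 11454. By this distance Klrb1a and Fcgr3 lay nearest to Ncr1 among the members. Its adaptor Fcer1g lay farther from it than the receptors other than Klrb1f. The values were not scaled, so the distance depends on the size of the fold change. The ranking nearly repeats the order of the log2 fold changes given above and is not a separate result.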

How the data were processed

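Double negative T cells cultured with or without IL-10 were profiled by RNA-seq in 3 libraries per group. The deposited table holds whole-number counts per Ensembl gene, which the authors made from reads. The submitters' processing notes name HISAT2, HTSeq and GRCm38, the study's methods name TopHat and Cufflinks, and the use of strand is not given in the sources used here. The labels name a TruSeq kit and the study's methods a NEBNext kit. The series' design text speaks of duplicates, whereas 3 libraries per group were analysed. No 2 libraries agreed within sampling noise.

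Of 29393 gene IDs, 29332 matched GENCODE M21, from which symbols, exon lengths and coding bases were taken. The 14916 genes that reached 10 counts in 3 or more libraries were fitted in edgeR 4.0.16 (R 4.3.3) with TMM scaling and the quasi-likelihood test, and called at a Benjamini-Hochberg adjusted p under 0.05 with a fold of at least 1.5. The script was tested on simulated counts. The alternatives were DESeq2 1.42.0, limma 3.58.1 (voom), upper-quartile scaling, other filters, a fold of 1.5 as the null hypothesis, a replicate block, a GC and length correction by splines, and each library left out. Promoters are those of RefSeq. Of the gene lists, every gene with an adjusted p under 0.05 was named, and otherwise at most 4 per list with the highest counts, with exceptions stated in the text (all 7 tested partner receptors were named). The members and lists were chosen with earlier results of these data known.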

Additional observations from a re-analysis of the deposited data

How the results depend on the processing

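Of all genes, 217 were called, against 359 with DESeq2, 637 with no filter on low counts, 15 with a fold of 1.5 as the null hypothesis, 331 with the GC and length correction together with the replicate block, and 35 to 254 with each library left out. Of the 9 genes, 1 was called, against 3 with DESeq2, with no filter, with the GC and length correction and with that correction plus the replicate block (Ncr1, Klrb1a and Fcgr3 in each), 0 with the fold of 1.5 as the null hypothesis, 2 with the replicate block (Ncr1 and Fcgr3) and 0 to 1 with each library left out. Of the pathway lists, 2 genes were called, against 4 with no filter, 0 with the fold of 1.5 as the null hypothesis, 1 with the replicate block, 1 with each GC and length correction, and 0 to 2 with each library left out. The log2 fold change of Fcer1g turned from -0.02 to 0.026 with the GC and length correction and to 0.025 with that correction and the replicate block, and ranged from -0.16 to 0.19 with each library left out. That of Hcst ranged from -0.34 to 0.14 over the same fits. Of the 135 values of the 9 genes under the alternatives, 115 kept their direction and their side of the threshold, 5 changed direction, 9 newly passed and 6 no longer passed. Whether replicate numbers pair the libraries was not settled. Over all tested genes, deviations of same-numbered libraries correlated weakly, at 0.0524, -0.0573 and 0.114 for replicates 1, 2 and 3. Replicates 1 and 3 of each group correlated best with their own number, and replicate 2 did not. With the block 196 genes were called. The SE then fell from 0.274 to 0.094 for Tyrobp and from 0.194 to 0.106 for Fcgr3, and rose from 0.132 to 0.147 for Klrb1f. The cause of these shifts was not tested. With 57 to 197 counts per library for Ncr1 and 41 to 119 for Klrb1a, counting error is largest for these genes.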
